A study of Mus musculus with 10 samples.

Results

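The genes described here are the Wnt ligands, their Frizzled receptors and Lrp coreceptors, the R-spondins, the secreted antagonists of the Dkk and Sfrp families, Wif1, and Axin2. They were chosen by symbol (Wnt, Fzd, Dkk, Sfrp or Rspo followed by a digit, plus Lrp5, Lrp6, Wif1 and Axin2), which gave 46 of the 41388 genes listed. They comprise 19 ligands, 10 Frizzled receptors, 2 coreceptors, 4 R-spondins, 9 antagonists, Axin2 and the antisense transcript Rspo4os, which the symbol rule takes in although it encodes none of these proteins. RNA of whole ear skin was sequenced from 10 C57Bl/6 mice, 6 in the Experimental group and 4 in the Littermate group. Experimental mice are NaV1.8+ with a floxed gene: the genotype label of each sample gives NaV1.8+ Jak1F/F, whereas the series text gives NaV1.8+ Il4raF/F, and the files do not decide between them. Littermate mice are labelled WT. MC903 (calipotriol), which acts on the vitamin D receptor and inflames the skin, was applied to mice of both groups at 1 nM each day for 12 days, so every value is one of treated skin. NaV1.8 is a sodium channel of sensory neurons, whose cell bodies lie outside the ear, and age, sex and litter are not given in the labels.

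Wnt proteins are secreted, lipid-modified ligands that bind a Frizzled receptor together with Lrp5 or Lrp6. In the canonical branch this stops the destruction of β-catenin, which then switches on target genes with TCF and LEF factors, and Axin2 is such a target that feeds back as a scaffold of the destruction complex. R-spondins strengthen the signal by keeping Frizzled receptors on the cell surface, whereas Dkk proteins bind the Lrp coreceptors and Sfrp and Wif1 proteins bind the ligands themselves. In skin the pathway is best known for inducing hair follicles, driving their growth phase and maintaining epidermal stem cells.

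Total counts lay between 11520348 and 41935183 per library, and a count of 3 was worth 0.0715 to 0.260 CPM (counts per 1000000 counted reads). Levels are given as CPM normalized with TMM factors when libraries are compared, and as RPKM (CPM per kilobase of gene length) when genes are compared. Fold changes are log2 values of Experimental over Littermate from edgeR's quasi-likelihood test on all 16830 genes that passed a filter on low counts, with p-values adjusted over all of them and called under 0.05. The candidate targets did not pass in whole skin: Il4ra averaged 189 ± 46.9 CPM in Experimental and 217 ± 23.5 CPM in Littermate libraries (SD, n = 6 and 4; edgeR, adjusted p = 0.678), and Jak1 averaged 298 ± 18.5 and 310 ± 25.4 CPM, Experimental given before Littermate (edgeR, adjusted p = 0.815). The gene of NaV1.8 itself, Scn10a, gave only 2 counts in the 10 libraries together, too few for a test. Whole skin is a mixture, so fewer cells of a type and less RNA per cell cannot be told apart.

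Promoter sequences are shown for Fzd9 and Sfrp2, the members with the lowest p that have an entry in the RefSeq table (GRCm38.p6, the assembly also called mm10), and for Axin2, the textbook target of the pathway. Each window runs from 250 bases before to 50 after the annotated start, on the strand of the gene, with the GC box GGGCGG in capitals wherever it occurred on either strand. The windows are chr5:135250998-135251297 (minus strand) for Fzd9, chr3:83766071-83766370 (plus strand) for Sfrp2 and chr11:108920099-108920398 (plus strand) for Axin2.
Fzd9: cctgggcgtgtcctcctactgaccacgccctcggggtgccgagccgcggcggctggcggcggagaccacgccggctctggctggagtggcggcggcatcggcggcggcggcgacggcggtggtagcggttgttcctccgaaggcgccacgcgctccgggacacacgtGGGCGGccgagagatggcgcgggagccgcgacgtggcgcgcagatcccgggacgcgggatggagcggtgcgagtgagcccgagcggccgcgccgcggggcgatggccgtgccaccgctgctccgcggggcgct
Sfrp2: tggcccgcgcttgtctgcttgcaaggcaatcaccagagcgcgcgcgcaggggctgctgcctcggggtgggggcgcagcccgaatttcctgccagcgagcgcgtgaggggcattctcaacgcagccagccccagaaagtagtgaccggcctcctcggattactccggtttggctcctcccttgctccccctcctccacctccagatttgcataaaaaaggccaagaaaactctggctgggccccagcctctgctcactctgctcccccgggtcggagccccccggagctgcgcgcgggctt
Axin2: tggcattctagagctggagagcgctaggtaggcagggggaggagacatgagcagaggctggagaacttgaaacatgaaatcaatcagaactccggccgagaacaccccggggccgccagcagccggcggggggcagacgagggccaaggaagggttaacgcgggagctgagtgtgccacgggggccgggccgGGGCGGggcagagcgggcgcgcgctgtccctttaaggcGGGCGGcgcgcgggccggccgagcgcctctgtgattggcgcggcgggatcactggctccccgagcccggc
The windows hold 78% G and C for Fzd9, 66% for Sfrp2 and 70% for Axin2. The GC box occurred 1 time in the Fzd9 window, 2 times in that of Axin2 and not in that of Sfrp2. Among the 29 members with an entry, 22 held it, and 35.7% of all 32851 promoter windows did. The core letters of the TCF/LEF motif, CTTTGA on either strand, were found in none of the 3 printed windows, in 3 of the 29 members (Dkk1, Fzd1 and Wnt11) and in 16.0% of all windows. A match or its absence describes these letters in this window and nothing about binding.

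No member of the Wnt group passed the test between Experimental and Littermate skin. Of the 46 genes, 37 had enough counts to be tested, and 0 of them were called (edgeR), where 3 of all 16830 genes (0.0178%) were, 0.00594% on the higher and 0.0119% on the lower side. At an unadjusted p under 0.05 there were 7 members, all lower in Experimental skin: the coreceptor Lrp5, the receptors Fzd9, Fzd7, Fzd5 and Fzd1, the antagonist Sfrp2 and the feedback gene Axin2. That is 18.9% of the tested members, against 8.1% of all tested genes on the lower side, 3.65% on the higher side and 11.8% in either direction. DESeq2, run without that filter on low counts, called 2 members, Fzd9 and Lrp5 (adjusted p = 0.0241 and 0.0278), and voom with quality weights called 0. Over all genes DESeq2 called 232 of 29507 and voom 60 of 16830. DESeq2's own filter left some of its 29507 genes without an adjusted p, Rspo4, Wnt10b and Wnt2 among them. For none of the 37 did all Experimental libraries lie outside the Littermate range, which 2.12% of all tested genes did (0.761% above it and 1.35% below). The tested members had log2 fold changes from -0.60 to 0.35 with a median of -0.02, against -0.00 over all tested genes, and 21 were below 0 (50.4% of all tested genes were) and 16 above.

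**Figure D1:**
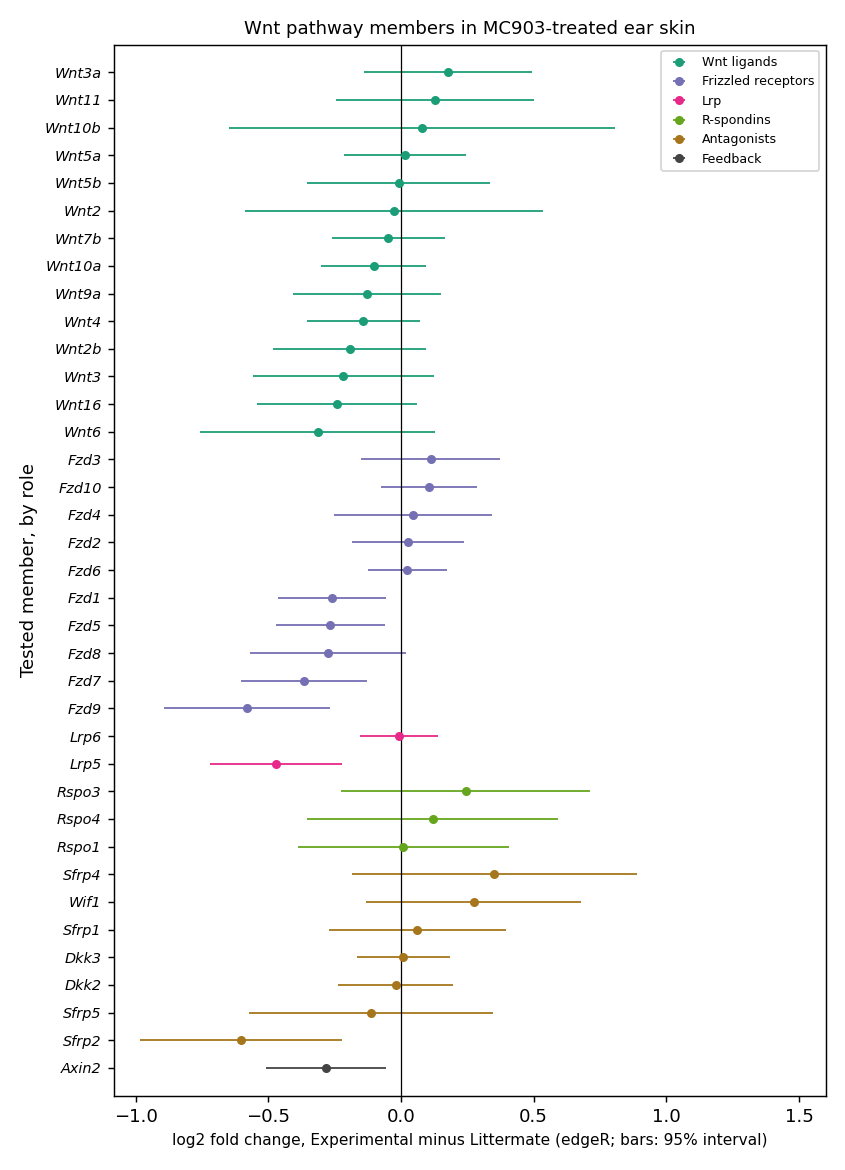
Log2 fold change of Experimental over Littermate (x axis) for the 37 tested members (y axis, by role), with points for the edgeR estimate and bars for the 95% interval. The intervals of Lrp5, Fzd9, Fzd7, Fzd5, Fzd1, Sfrp2 and Axin2 lie wholly below 0, and no interval lies wholly above it.

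Among the ligands, the skin of both groups carried mainly 3 genes. Wnt4, Wnt10a and Wnt7b, which are known from the epidermis and hair follicle, made up 70.7% of the summed RPKM of all 19 Wnt genes. Wnt4 had a mean of 17.6 ± 2.1 RPKM in Experimental and 19.1 ± 2.5 RPKM in Littermate libraries, Wnt10a 17.7 ± 1.8 and 18.7 ± 2.0 RPKM, and Wnt7b 11.4 ± 1.6 and 11.6 ± 0.95 RPKM (SD, n = 6 and 4, Experimental given before Littermate). The canonical ligand Wnt3 followed at 4.17 ± 0.75 and 4.80 ± 1.06 RPKM, then Wnt5a, the main ligand of the branch that does not act through β-catenin, at 2.63 ± 0.26 and 2.58 ± 0.37 RPKM. Wnt3a, Wnt16, Wnt2b, Wnt11, Wnt9a, Wnt6 and Wnt5b had means between 1.12 and 2.50 RPKM in either group, and Wnt2 and Wnt10b between 0.34 and 0.52 RPKM. The summed RPKM of the ligands was 66.1 ± 3.5 in Experimental and 69.9 ± 4.6 in Littermate libraries, and the groups' ranges overlapped (60.2 to 70.6 and 63.2 to 72.9 RPKM).

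**Figure D2:**
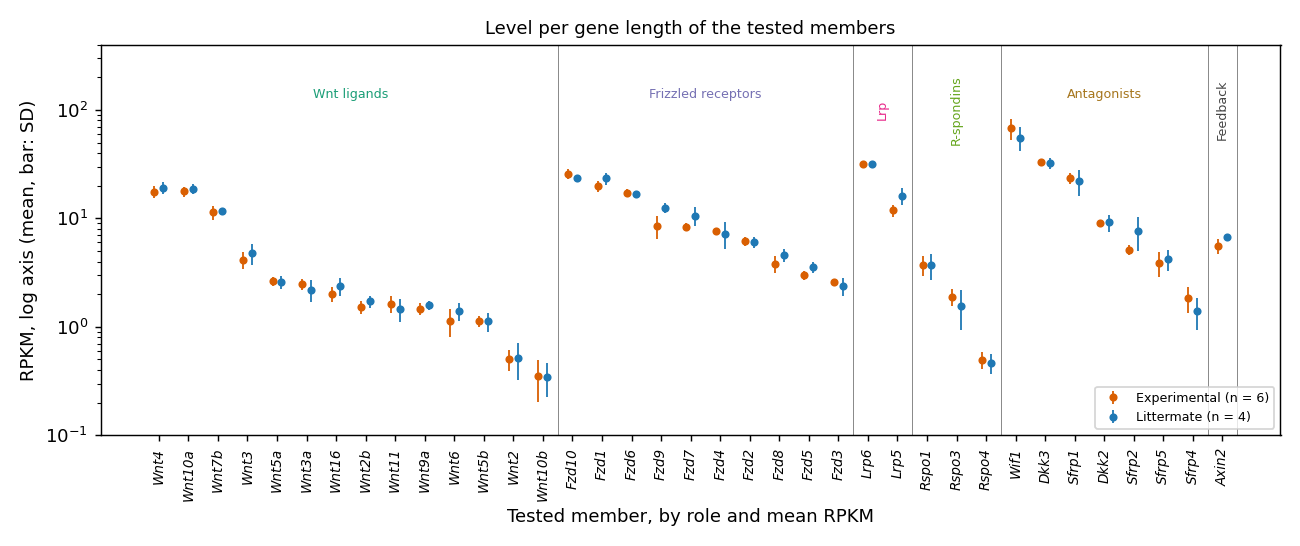
Mean RPKM on a log axis (y) of the 37 tested members (x, by role and level) in Experimental (orange) and Littermate (blue) libraries, with SD bars. Among the ligands the means run from 0.34 to 19.1 RPKM, and Wif1 is the highest member in both groups.

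None of the 14 tested ligands passed or reached an unadjusted p under 0.05, and 10 of them had log2 fold changes below 0 (median -0.07). Wnt4 had a lowest, median and highest level of 62.5, 73.3 and 85.5 CPM in Experimental libraries, against 89.2, 67.1, 78.3 and 89.6 CPM in Littermates 1 to 4. The ranges overlapped, and 5 of 6 Experimental libraries lay below the Littermate mean, with an estimated log2 difference of -0.14 (edgeR, adjusted p = 0.609), which was -0.22 without Littermate 2 and -0.08 without Littermate 4. Wnt16, a ligand best known from bone and joint, had 7.57, 8.37 and 11.4 CPM as lowest, median and highest Experimental level, against 12.9, 9.01, 10.8 and 8.73 CPM in Littermates, and an estimated log2 difference of -0.24 (edgeR, adjusted p = 0.538), which was -0.11 without Littermate 1. Wnt6 had 1.57, 2.42 and 3.68 CPM, against 2.43, 3.66, 2.84 and 3.43 CPM, and an estimated log2 difference of -0.31 (edgeR, adjusted p = 0.591). For both genes 5 of 6 Experimental libraries lay below the Littermate mean and 1 above it, as for Wnt4. Wnt3a at 0.18, Wnt11 at 0.13, Wnt10b at 0.08 and Wnt5a at 0.02 were the ligands with a log2 fold change above 0. The 95% interval of Wnt10a, from -0.30 to 0.10, and that of Wnt7b, from -0.26 to 0.16, bound the change of these abundant ligands.

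The other 5 ligands were too low to be tested. Summed over libraries, Wnt9b had 58 counts in the Experimental and 22 in the Littermate group, Wnt7a 36 and 29, Wnt8b 30 and 5, Wnt8a 13 and 5, and Wnt1 1 and 0, with the Experimental group sequenced more deeply. Dkk4 had 38 and 13 counts, Dkk1 1 and 3, Rspo2 29 and 4 and Rspo4os 2 and 1, and these were not tested either. No fold change is given for these 9 genes.

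All 10 Frizzled receptors were tested and none passed, while 4 had an unadjusted p under 0.05. Fzd10 was the highest per length at 25.8 ± 2.8 RPKM in Experimental and 23.7 ± 1.2 RPKM in Littermate libraries, followed by Fzd1 at 19.8 ± 2.3 and 23.4 ± 2.9 RPKM and Fzd6, which orients hair follicles in mice, at 17.3 ± 1.2 and 16.8 ± 0.85 RPKM (SD, n = 6 and 4). Fzd9, Fzd7, Fzd4, Fzd2, Fzd8, Fzd5 and Fzd3 had means from 2.39 to 12.5 RPKM. Fzd10 had 70.0, 83.1 and 95.9 CPM as lowest, median and highest Experimental level, against 82.1, 73.7, 80.7 and 74.9 CPM in Littermates. The estimate was 0.11, and its 95% interval spanned -0.07 to 0.29 (edgeR, adjusted p = 0.662). Sorted by their own estimates, Fzd3, Fzd10, Fzd4, Fzd2 and Fzd6 stood from 0.02 to 0.11, and Fzd1, Fzd5, Fzd8, Fzd7 and Fzd9 from -0.58 to -0.26. This order describes the estimates and was not tested. The 95% interval of Fzd8 crossed 0 (-0.57 to 0.02), and the signs of Fzd2 and Fzd4 turned with single libraries left out.

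Fzd9 (ENSMUSG00000049551, mm10 chromosome 5, 135248938 to 135251230, minus strand) had the largest difference among the receptors. Its lowest, median and highest Experimental levels were 14.4, 18.5 and 27.1 CPM, against 28.2, 31.2, 25.5 and 31.1 CPM in Littermates 1 to 4. In 5 of 6 Experimental libraries it lay below every Littermate, and Experimental 4 lay inside the Littermate range. It averaged 19.5 ± 4.5 CPM in Experimental and 29.0 ± 2.7 CPM in Littermate libraries, and the estimated log2 difference was -0.58 ± 0.15 (SE; edgeR, adjusted p = 0.135).

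Fzd7, a receptor of canonical signalling in many stem cells, had 33.7, 37.4 and 41.4 CPM as lowest, median and highest Experimental level, against 39.9, 40.6, 52.7 and 60.5 CPM in Littermates. Littermates 3 and 4 stood apart from the other libraries, and the log2 fold change was -0.36 (edgeR, adjusted p = 0.229). Without Littermate 4 it was -0.23 (edgeR, adjusted p = 0.669).
Fzd5 had 18.4, 20.3 and 23.7 CPM in Experimental libraries, against 26.4, 22.9, 22.1 and 28.4 CPM in Littermates, and 5 of 6 Experimental libraries lay below every Littermate. Its log2 fold change was -0.27 (edgeR, adjusted p = 0.301). Fzd1 had 73.0, 81.9 and 90.9 CPM, against 96.2, 90.7, 89.8 and 116 CPM, with an estimated log2 difference of -0.26 (edgeR, adjusted p = 0.305). Littermate 4 was the highest library for Fzd1, and the estimate was -0.16 without it (edgeR, adjusted p = 0.743). Fzd8 had 10.2, 12.4 and 16.8 CPM, against 16.3, 12.5, 15.3 and 17.9 CPM, and an estimated log2 difference of -0.28 (edgeR, adjusted p = 0.461).

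**Figure D3:**
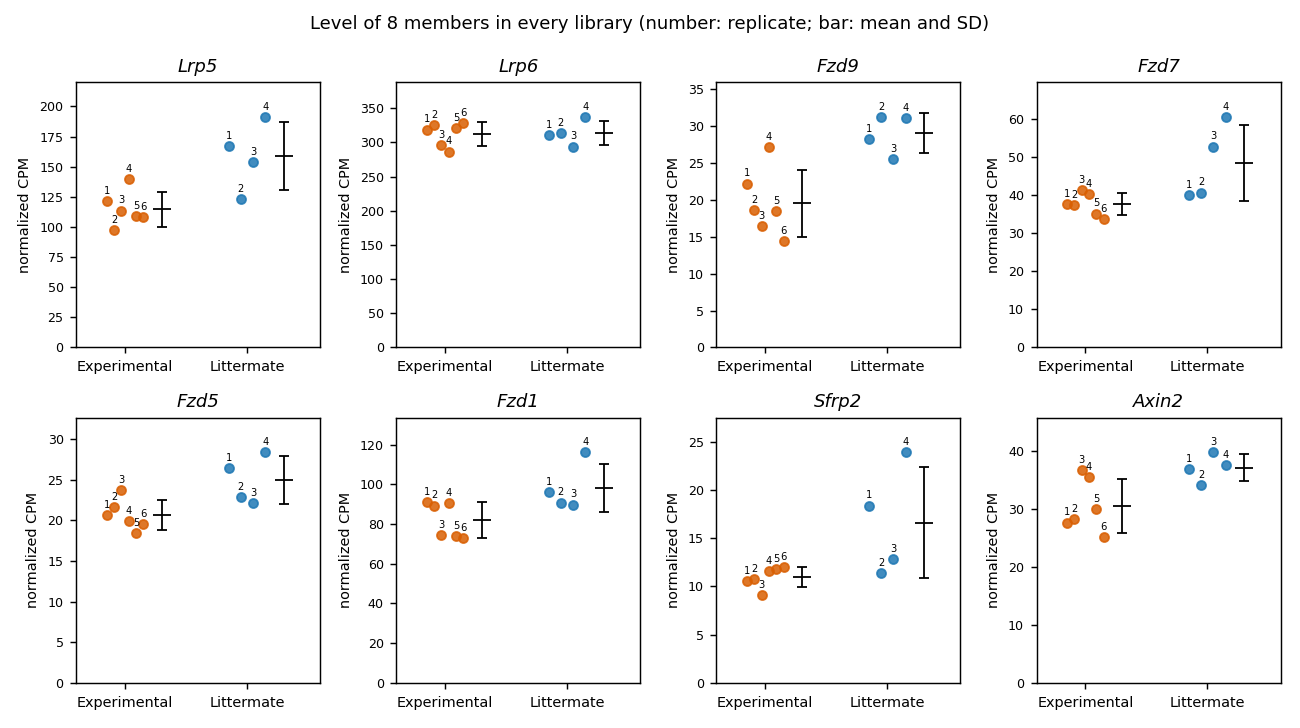
Normalized CPM (y axes from 0) of 8 members in each of the 6 Experimental (orange) and 4 Littermate (blue) libraries, numbered by replicate, with mean and SD beside them. The groups overlap for each gene, and Littermate 4 is the highest library for Lrp5, Lrp6, Fzd7, Fzd5, Fzd1 and Sfrp2.

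The coreceptors Lrp5 and Lrp6, which pair with a Frizzled receptor to bind a ligand, had unlike estimates in these libraries. Lrp6 was the more abundant at 31.9 ± 1.6 RPKM in Experimental and 31.7 ± 1.9 RPKM in Littermate libraries, and Lrp5 had 11.8 ± 1.6 and 16.2 ± 2.8 RPKM (SD, n = 6 and 4). Lrp5 (ENSMUSG00000024913, mm10 chromosome 19, 3584828 to 3686564, minus strand), which in human and mouse is known for setting bone mass, had 97.3, 111 and 139.5 CPM as lowest, median and highest Experimental level. Littermates 1 to 4 had 167, 123, 154 and 191 CPM, so that 5 of 6 Experimental libraries lay below every Littermate and Experimental 4 lay above Littermate 2. The estimated log2 difference was -0.47 ± 0.12 (SE; interval -0.72 to -0.22; edgeR, adjusted p = 0.127), the lowest p of any member. Without Littermate 2 the estimate was -0.58 and passed (edgeR, adjusted p = 0.0143), and without Littermate 4 it was -0.36 (edgeR, adjusted p = 0.506). Lrp6 had 286.5, 320 and 328 CPM as lowest, median and highest Experimental level, against 310, 314, 294 and 337 CPM in Littermates, and its estimate was -0.01 (interval -0.15 to 0.14; edgeR, adjusted p = 0.984).

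The ratio of Lrp5 to Lrp6 counts within a library, which does not depend on scaling between libraries, was chosen after the values were seen. It was 0.381, 0.2996, 0.384, 0.487, 0.339 and 0.329 in Experimental 1 to 6, against 0.538, 0.391, 0.524 and 0.567 in Littermates 1 to 4. The mean of its log2 was -1.45 in Experimental and -0.999 in Littermate libraries, a difference of -0.45. The pair was chosen for its values, so this is a description with no test. With each library left out the difference ran from -0.54 without Experimental 4 and -0.57 without Littermate 2 to -0.39 without Littermate 4. The longest transcript of Lrp5 holds 54.7% G and C and that of Lrp6 46.0%. After correction for GC content in each library Lrp5 stood at -0.41 and Lrp6 at -0.03 on the log2 scale.

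The R-spondins, which act through Lgr receptors, were low. Rspo1 led at 3.72 ± 0.77 RPKM in Experimental and 3.70 ± 1.01 RPKM in Littermate libraries, Rspo3 had 1.89 ± 0.34 and 1.57 ± 0.62 RPKM, and Rspo4, known for nail formation in humans, had 0.50 ± 0.09 and 0.47 ± 0.10 RPKM (SD, n = 6 and 4). Rspo1 had 5.06, 7.51 and 9.03 CPM as lowest, median and highest Experimental level, against 6.73, 6.16, 5.90 and 10.2 CPM in Littermates. The groups overlapped, with an estimated log2 difference of 0.01 (edgeR, adjusted p = 0.992). Rspo3 stood at 0.24 and Rspo4 at 0.12 on the log2 scale, with intervals from -0.23 to 0.71 and from -0.35 to 0.59, so that changes of that size were not detectable at this depth and spread. Rspo3 stood at 0.54 without Littermate 1 and at 0.10 without Littermate 3, and Rspo4 at 0.26 without Littermate 1 and at 0.02 without Littermate 2.

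Among the antagonists, Wif1, Dkk3 and Sfrp1 made up 84.8% of the summed RPKM of the 9 genes. Wif1 was the most abundant member of all, at 67.8 ± 14.8 RPKM in Experimental and 55.4 ± 13.6 RPKM in Littermate libraries (SD, n = 6 and 4). It had 130, 156 and 222 CPM as lowest, median and highest Experimental level, against 154, 170, 102 and 115 CPM in Littermates. The libraries spread widely in both groups and overlapped, and the estimate was 0.27 (interval -0.13 to 0.68; edgeR, adjusted p = 0.60). Dkk3, a divergent Dkk protein, had 32.9 ± 2.5 and 32.3 ± 3.6 RPKM and an estimate of 0.01 (interval -0.17 to 0.19), and Dkk2 stood at -0.02 (interval -0.24 to 0.20). Without Littermate 3 the estimate of Wif1 was 0.17, as it was without Experimental 5. Sfrp1, at 23.4 ± 2.7 and 22.1 ± 5.9 RPKM, had a log2 fold change of 0.06. Sfrp5 stood at -0.11 and Sfrp4 at 0.35, with 3 of 6 Experimental libraries above every Littermate for Sfrp4, whose estimate was 0.22 without Littermate 2.

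Sfrp2 (ENSMUSG00000027996, mm10 chromosome 3, 83766321 to 83774316, plus strand), a secreted Frizzled-related protein made by dermal fibroblasts, had the lowest estimate of any member. Its lowest, median and highest Experimental levels were 9.12, 11.2 and 12.0 CPM, against 18.4, 11.4, 12.8 and 23.9 CPM in Littermates 1 to 4. The Experimental libraries were close together, and Littermates 1 and 4 stood above the other 8 libraries. It averaged 10.99 ± 1.1 CPM in Experimental and 16.6 ± 5.7 CPM in Littermate libraries, and the estimated log2 difference was -0.60 ± 0.18 (SE; edgeR, adjusted p = 0.212). Without Littermate 4 the estimate was -0.36 (edgeR, adjusted p = 0.642), and without Littermate 2 it was -0.75 and passed (edgeR, adjusted p = 0.0320).
The summed level of 8 markers of dermal fibroblasts, among them the collagen gene Col1a1, was also highest in Littermates 1 and 4, at 11160 and 11480 CPM, against 8202 and 7179 CPM in Littermates 2 and 3 and a range from 7399 to 9553 CPM over Experimental libraries. None of these markers was at 0, and 5 of 8 had log2 fold changes above 0 and 3 below. Their part in the result was not tested. An antisense gene, Gm26771, overlaps 16.1% of the exonic bases of Sfrp2 and had 31 counts over all libraries, and reads of the 2 genes cannot be told apart without strand marking.

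Axin2 (ENSMUSG00000000142, mm10 chromosome 11, 108920349 to 108950783, plus strand), the feedback target, had 25.1, 29.0 and 36.7 CPM as lowest, median and highest Experimental level. Littermates 1 to 4 had 36.9, 34.2, 39.7 and 37.6 CPM. In 4 of 6 Experimental libraries Axin2 lay below every Littermate, and Experimental 3 and 4 lay within the Littermate range. It averaged 30.5 ± 4.6 CPM in Experimental and 37.1 ± 2.3 CPM in Littermate libraries (SD, n = 6 and 4), and the estimate was -0.28 (interval -0.51 to -0.06; edgeR, adjusted p = 0.313).

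Of 90 other genes of the pathway, in 6 lists and none of them a member, 0 were called by edgeR, while 23 were lower and 1 was higher at an unadjusted p under 0.05. Over all tested genes 8.1% were lower and 3.65% higher at that p, and 50.4% had a log2 fold change below 0. These shares are those of the main fit and apply to the counts of each list below, but not to the other settings. DESeq2 called 7, all lower: the transducers Bcl9l and Dvl3, the receptor Adgra2, Nfatc1 and Nfatc2, and the polarity cadherins Celsr1 and Celsr2. Voom with quality weights called 3 (Bcl9l, Dvl3 and Nfatc2), and edgeR without Littermate 2 called 8, all lower. Over all genes these settings called 232 of 29507 (DESeq2), 60 of 16830 (voom) and 343 of 17095 (without Littermate 2). Other settings gave fewer: at an unadjusted p under 0.05, 15 were lower and 1 higher with GC correction. In that fit 5.89% of all tested genes were lower and 4.3% higher. Without Littermate 4 there were 13 lower and 2 higher, and with the level of Y-linked genes as a covariate 5 and 1. For both, the shares over all genes were not counted. In these 3 settings 0 were called. Of 31 tested genes of canonical transduction 21 had log2 fold changes below 0, with a median of -0.11 and 8 lower at an unadjusted p under 0.05, and the genes of lowest p were Bcl9l, a β-catenin cofactor, and Dvl3, which relays the signal from Frizzled. Bcl9l averaged 42.0 ± 5.5 CPM in Experimental and 66.7 ± 13.6 CPM in Littermate libraries and Dvl3 25.4 ± 1.6 and 34.8 ± 5.2 CPM, with estimates of -0.66 and -0.45 (edgeR, adjusted p = 0.0834 for both). Bcl9l passed in 6 of the 20 alternatives and Dvl3 in 5 (DESeq2, adjusted p = 0.0017 and 0.0058). The transduction list also holds Fzr1, an activator of the anaphase-promoting complex that is no Wnt transducer, which was among the 8. Of 15 other receptors 11 were below 0 (median -0.14), with 4 lower at an unadjusted p under 0.05, led by Adgra2 at -0.56 and the Wnt5a receptor Ror2 at -0.36 (edgeR, adjusted p = 0.135 and 0.303). Of 18 genes of the planar polarity and calcium branches 15 were below 0 (median -0.15), with 8 lower at an unadjusted p under 0.05, led by the transcription factors Nfatc2 at -0.42 and Nfatc1 at -0.36 (edgeR, adjusted p = 0.0834 and 0.121), which passed in 5 and 3 of the 20 alternatives.
Of 21 tested canonical target genes 15 were below 0 (median -0.08), with 3 lower and 1 higher at an unadjusted p under 0.05, where Msx1 stood at -0.33 and Msx2, a factor of the hair matrix, at 0.46 (edgeR, adjusted p = 0.302 and 0.320). Of 7 other secreted antagonists 6 were below 0 (median -0.11), with Igfbp4 at -0.30 and Trabd2b at -0.27, and of 5 genes of Wnt secretion and release 3 were above 0 (median 0.04), with Tmed5 at 0.15 and Notum at -0.16.

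Measures that differed between libraries are given beside these values. The members were richer in G and C than other genes, with a median of 53.9% in the longest transcript over the 37 tested members, against 49.7% over all tested genes. After correction for GC content per library 6 members were lower at an unadjusted p under 0.05 (16.2%) and 1, Fzd10, was higher, against 5.89% and 4.3% of all tested genes, and Axin2 was no longer among them, at -0.22 (edgeR, adjusted p = 0.496). Fzd9 moved to -0.42, Fzd1 to -0.18 and Wnt6 to -0.16, while Sfrp2 stood at -0.56 and Lrp5 at -0.41 (edgeR, adjusted p = 0.325 and 0.254).

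**Figure D4:**
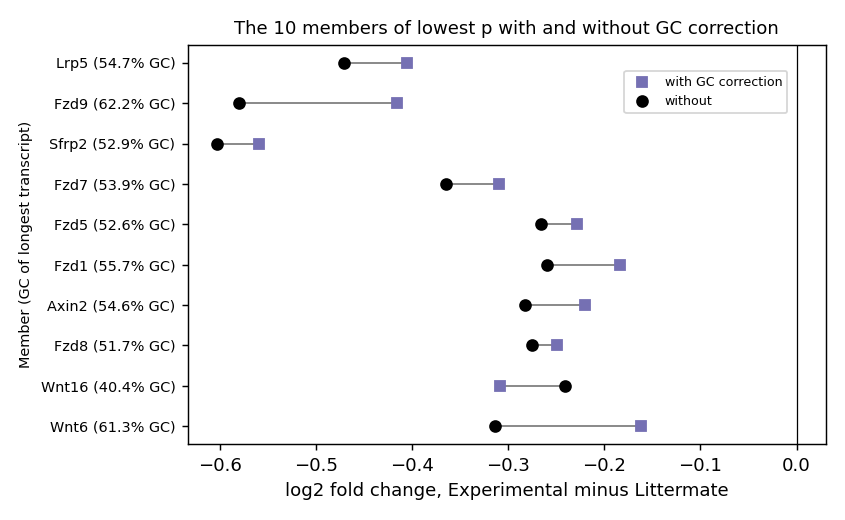
Log2 fold change of Experimental over Littermate (x axis) for the 10 members of lowest p (y axis, with the GC content of the longest transcript), without (black circles) and with (purple squares) correction for GC content per library. Of the 10 estimates 9 move toward 0 and that of Wnt16, with 40.4% G and C, moves away from it.

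Single libraries also stood out among the members. Littermate 4 was the highest of the 10 libraries for 15 of the 37 tested members and Experimental 6 the lowest for 11. The same was not counted over all genes, so it may not be particular to the members. Markers of the hair matrix and shaft lay above 0 in 8 of 8 tested genes of 13 listed (median 0.65), with a summed level from 783 to 2050 CPM in Experimental and from 733 to 1215 CPM in Littermate libraries, and 5 were higher at an unadjusted p under 0.05. Of the hair follicle bulge markers, 4 of 7 lay below 0 (median -0.33) and Sox9 was called, at 16.9 ± 1.6 CPM in Experimental and 27.9 ± 1.5 CPM in Littermate libraries (edgeR, adjusted p = 0.0033). Their summed level ran from 589 to 780 CPM in Experimental and from 540 to 949 CPM in Littermate libraries. Cartilage markers lay below 0 in 6 of 7 tested genes (median -0.21), with summed levels from 225 to 419 CPM in Experimental and from 280 to 441 CPM in Littermate libraries, and keratinocyte markers were divided 4 and 4, with 27190 to 34540 CPM and 29340 to 34390 CPM. Neutrophil, melanocyte and Schwann cell markers lay below 0 in 6 of 6 genes each (medians -0.41, -0.33 and -0.17) and mast cell markers in 5 of 5 (median -0.20), with none of them called. Their summed levels overlapped between the groups. Experimental before Littermate, they ran from 199 to 493 and 296.5 to 575 CPM for neutrophils and from 92.9 to 106 and 90.3 to 152 CPM for melanocytes. For Schwann cells they were 196 to 281 and 262 to 341 CPM, and for mast cells 348 to 455 and 401 to 473 CPM. T cell markers lay above 0 in 5 of 6 (median 0.16), but their summed level had a median of 30.7 CPM in Experimental and 36.2 CPM in Littermate libraries, and Cd4 alone was at an unadjusted p under 0.05, lower at -0.43 (edgeR, adjusted p = 0.26). Skeletal muscle markers lay below 0 in 6 of 8 genes (median -0.30), with 3 lower at an unadjusted p under 0.05, led by Tnnc2 at -1.48, and summed levels from 3088 to 4253 CPM in Experimental and from 2828 to 6153 CPM in Littermate libraries. Endothelial markers lay below 0 in 6 of 7 (median -0.14), with the lymphatic genes Prox1 at -0.52 and Flt4 at -0.41 lower at an unadjusted p under 0.05, and summed levels from 221 to 293 CPM in Experimental and from 251 to 330.5 CPM in Littermate libraries. Macrophage markers lay below 0 in 5 of 6 (median -0.17), with 1 lower at an unadjusted p under 0.05. Dermal papilla markers lay above 0 in 4 of 7 tested genes (median 0.01) and sebaceous gland markers in 4 of 6 (median 0.11). Adipocyte markers lay below 0 in 4 of 6 (median -0.10). None of these was called, and 1 sebaceous gland marker was lower at an unadjusted p under 0.05. No gene of these lists was at 0 in all libraries, and their part in the values of the members was not tested.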

How the data were processed

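Per the labels' protocols, total RNA of whole ear skin was depleted of ribosomal RNA, copied from random hexamers and sequenced as single reads of 50 bases, with no strand marking described. The submitters' processing notes name mm10, STAR (version 2.0.4b), Subread, and featureCounts (version 1.4.5), without roles. Annotation and strand setting are not given in the sources used. The deposited files hold raw counts per Ensembl gene. The deposited CPM is the count over the library's total, per 1000000, and the deposited RPKM is that CPM per kilobase of gene length (both recomputed from the counts). The counts entered the tests, and RPKM was used for levels between genes.

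Symbols were matched to 97.3% of the listed genes. Testing used edgeR 4.0.16 (TMM, filterByExpr, robust quasi-likelihood, two-sided, group as the only term) with Benjamini-Hochberg adjustment over 16830 genes and a threshold of 0.05, after the script was tested on simulated data. The standard error is the fold change over the root of F. Replicates are mice as labelled, and p-values measure only the spread between these libraries. Alternatives were other size factors, filters, DESeq2 1.42.0, voom in limma 3.58.1, a replicate block, a GC correction (lowess on the GC content of the longest GENCODE M21 transcript, known for 99.3% of tested genes), a Y-linked covariate and libraries left out. The members, gene lists and tests were chosen with earlier results of these data known. Named are the 10 tested members of lowest p, the most abundant of each role and Axin2. From each pathway list the genes that passed are named, at most 4, filled to 2 by the lowest p. Marker lists are given mainly by their counts and sums, with only some of their genes named. The canonical transduction list also holds Fzr1, which does not belong there. No window of 50 bases was shared between transcripts of different members. The printed windows are RefSeq's. Read counts without molecular identifiers are not independent molecules.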

Additional observations from a re-analysis of the deposited data

Results flagged for a closer look

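In the wider pathway Msx1, a homeobox target gene, had 1 library apart from the rest in each group. Experimental 5 had 7.95 CPM, against 6.73 CPM in the next highest Experimental library, and Littermate 3 had 6.68 CPM, against 8.81 CPM in the next lowest Littermate. Chance flags about 1 in 20 groups, and no member of the Wnt group had such a library among the 37 tested.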

How the results depend on the processing

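The count of genes called over all genes, 3 at first, was 78 with no filter on low counts, 232 with DESeq2, 60 with voom and quality weights, 67 with the replicate block, 11 with GC correction and the replicate block, 563 without Littermate 2 and Experimental 6 together, and from 3 to 343 with each library left out, the highest without Littermate 2 (28 without Experimental 6 and 8 without Littermate 3). The count of members called, 0 at first, was 2 with DESeq2 (Fzd9 and Lrp5), 1 with the replicate block (Lrp5, adjusted p = 0.0461), 2 without Littermate 2 and Experimental 6 together (Lrp5 and Sfrp2) and from 0 to 2 with each library left out, the highest without Littermate 2 (Lrp5 and Sfrp2). Members at an unadjusted p under 0.05 numbered 11 without Littermate 2 and Experimental 6 together, 10 lower and 1 (Wif1) higher. The share of all genes at that p was not counted in this setting, where calls over all genes also rose. Whether the replicate numbers pair the libraries is not known. Deviations of same-numbered libraries correlated at 0.033, -0.020, 0.091 and -0.021, and Experimental 3 alone correlated best with the Littermate of its number. The highest correlation of these Experimental libraries with any Littermate was only 0.047 to 0.091. Correlations this weak throughout cannot show whether same-numbered libraries were paired. Replicates 5 and 6 occur only in the Experimental group, so with the replicate block these libraries add nothing to the group difference. With the level of Y-linked genes as a covariate 3 members were higher and 2 lower at an unadjusted p under 0.05. The shares of all genes at that p were not counted with this covariate. In that fit Lrp5 stood at -0.28, Sfrp2 at -0.22, Fzd7 at -0.20, Fzd5 at -0.14, Fzd1 and Fzd8 at -0.04, Wnt4 at -0.05, Wif1 at 0.12, Rspo3 at 0.07, Rspo4 at 0.25, Igfbp4 at -0.0003, Adgra2 at -0.31, Dvl3 at -0.30, Nfatc1 at -0.22 and Msx2 at 0.25. Y-linked genes were read in every library, so this covariate does not separate the sexes. Their log2 CPM ran from 7.82 to 8.24 in Littermate and from 8.14 to 8.40 in Experimental libraries. Because the covariate follows the group in part, it takes up part of the group difference, and the 2 cannot be fully told apart. Of the 90 other pathway genes, 0 at first, 3 were called with no filter, 7 with DESeq2, 3 with voom, 2 with the replicate block (Bcl9l and Adgra2), 8 without Littermate 2 and 9 without Littermate 2 and Experimental 6 together. With GC correction, with GC correction and the replicate block, and with the Y-linked covariate 0 were called.

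Of the 37 tested members 22 kept the sign of their log2 fold change in all alternatives run (20 each, 19 for Wnt10b), the 7 lower at an unadjusted p under 0.05 among them, and 34 were called in none. The log2 fold changes whose sign turned are as follows. Without a filter, they were Lrp6 0.0047 and Wnt5b 0.0045. With voom, they were Dkk2 0.036, Lrp6 0.020, Wnt10b -0.031, Wnt2 0.078 and Wnt5b 0.10. With the replicate block, they were Dkk2 0.013, Dkk3 -0.051, Sfrp5 0.080, Wnt5a -0.0010 and Wnt7b 0.0041. With GC correction, they were Sfrp5 0.036, Wnt10a 0.093, Wnt2 0.0022, Wnt5a -0.0054, Wnt5b 0.14 and Wnt7b 0.084. With GC correction and the replicate block, they were Dkk3 -0.036, Notum 0.026, Sfrp5 0.19, Wnt10a 0.028, Wnt5a -0.014, Wnt5b 0.10 and Wnt7b 0.11. With the Y-linked covariate, they were Dkk3 -0.040, Lrp6 0.050, Sfrp5 0.24, Tmed5 -0.069 and Wnt5b 0.17. Without Littermate 2 and Experimental 6 together, they were Dkk2 0.12, Fzd2 -0.011, Fzd4 -0.085, Sfrp1 -0.093, Wnt10b -0.086, Wnt2 0.26, Wnt5a -0.083 and Wnt5b 0.022. With each library left out the ranges were Dkk2 -0.096 to 0.092, Dkk3 -0.050 to 0.057, Fzd2 -0.033 to 0.099, Fzd4 -0.080 to 0.25, Lrp6 -0.032 to 0.040, Rspo1 -0.073 to 0.23, Sfrp1 -0.068 to 0.21, Sfrp5 -0.23 to 0.017, Wnt10b -0.072 to 0.31, Wnt11 -0.025 to 0.23, Wnt2 -0.19 to 0.24, Wnt5a -0.049 to 0.092, Wnt5b -0.077 to 0.14 and Wnt7b -0.10 to 0.0019. The cause was not tested.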
